A study of Mus musculus with 16 samples.

Results

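Gap junction connexins are described here in cultures in which mouse embryonic stem (ES) cells differentiated in contact with PA6 cells, a line of stromal cells derived from the bone marrow of mice, and in PA6 cells grown alone. The members are the 4 connexin genes GJA1, GJB2, GJB5 and GJB6 of the 30854 target names on the array, and they are read by 6 of its 45281 probes. They were selected on these same values, since GJB2 was high with BMP4 in the co-cultures and GJB6 differed between both kinds of culture. The values that served for this selection are therefore given as a description, with no test.

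RNA was taken at day 7 from 16 cultures in serum-free medium, with 1 Illumina MouseWG-6 v2.0 array for each. For co-cultures there were 2 arrays in absence of growth factors (-GFs), 3 upon FGF2 (20 ng/ml) and 2 upon BMP4 (10 ng/ml), and each of these conditions had 3 arrays in PA6 mono-cultures. Per the labels a factor was present for 3 days, and the dose of BMP4 in the methods of the study is lower than the one in the labels. The ES cells of all co-cultures came from a single knock-in line, in which EGFP is driven by the τ promoter, and the stromal cells of all 16 cultures were PA6 cells. Replicates are called biological by the labels, and p-values measure the spread between these few samples. In bulk RNA of this kind, fewer cells of a type and less RNA per cell cannot be told apart, and a co-culture holds RNA of the ES progeny and of the stroma together.

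The 10 stromal markers examined (collagens, DCN, LUM and others) had a summed normalized intensity of 60261 to 75573 in the co-cultures and of 147812 to 222713 in PA6 mono-cultures, and all 10 were detected on every PA6 array. The share of probes detected ranged from 37.3% to 47.0% per array and the median raw intensity from 177.9 to 232.2. Intensities are given as raw bead intensity or on the log2 scale after background correction and quantile normalization. A probe is called detected when its detection p-value, which sets it against the negative controls of the same array, is under 0.05.

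Connexins are the proteins of gap junctions in vertebrates. A ring of connexins forms a hemichannel in the plasma membrane, and hemichannels of neighbouring cells dock to form a channel through which ions and small metabolites pass. The alpha connexin GJA1 (Cx43) is the most widespread of them and is abundant in ES cells, neural progenitors and stroma. The beta connexins GJB2 (Cx26) and GJB6 (Cx30) form mixed channels in the cochlea and are found in stratified epithelia, and GJB6 is also a connexin of astrocytes. GJB5 belongs to the beta connexins of skin and trophoblast.

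In the mouse gene annotation, Gja3, Gjb2 and Gjb6 follow each other as neighbouring protein-coding genes on chromosome 14. Gja1 lies on chromosome 10 with no connexin gene beside it, and Gjb5 on chromosome 4. The promoter windows of Gjb2 and Gjb6 are shown because both genes were high on the same arrays. They run from 250 bases before to 50 bases after the start of each gene and come from RefSeq (build GRCm38.p6). All 4 members matched a window. The Gjb2 window is chr14:57104653-57104952 and the Gjb6 window chr14:57133562-57133861, both on the minus strand and printed 5′ to 3′ in the direction of the gene. Capitals mark the motifs found on either strand.
Gjb2: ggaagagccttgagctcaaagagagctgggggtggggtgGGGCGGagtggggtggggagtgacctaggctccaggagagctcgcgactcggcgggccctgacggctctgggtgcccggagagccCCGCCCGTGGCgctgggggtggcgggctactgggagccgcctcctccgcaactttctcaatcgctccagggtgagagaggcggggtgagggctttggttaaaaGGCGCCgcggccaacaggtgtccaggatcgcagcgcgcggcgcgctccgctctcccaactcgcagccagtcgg
Gjb6: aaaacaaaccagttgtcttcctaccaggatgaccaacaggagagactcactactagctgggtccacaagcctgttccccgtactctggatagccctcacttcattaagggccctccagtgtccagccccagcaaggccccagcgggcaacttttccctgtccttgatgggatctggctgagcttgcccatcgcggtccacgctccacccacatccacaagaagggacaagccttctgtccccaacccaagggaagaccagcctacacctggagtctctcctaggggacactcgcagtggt
On both strands 4 motifs were searched, namely the GC box with the letters GGGCGG, an AP-2 type motif with GCCNNNGGC, a GC-rich motif of SMAD proteins with GGCGCC and the TATA box with TATAAA. The Gjb2 window held 2 GC boxes, at 211 and 126 bases before the start, the latter on the other strand. It also held 1 AP-2 type motif at 124 bases, which overlaps the GC box at 126, and 1 GGCGCC at 23 bases before the start. The Gjb6 and Gja1 windows held none of the 4 motifs, and the Gjb5 window held 1 AP-2 type motif and 1 TATAAA on the other strand. Of 32851 promoter windows of this length, 35.7% held GGGCGG, 16.6% GCCNNNGGC, 11.9% GGCGCC and 13.6% TATAAA. The letters G and C made up 70% of the Gjb2 window and 57.3% of the Gjb6 window, next to a median of 52.7% over all windows. A match is a run of letters and was not tested as a binding site.

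GJA1 was detected on all 16 arrays and separated both kinds of culture. In co-cultures its log2 values were 14.42 and 14.00 without growth factors. They were 14.14, 13.47 and 13.65 with FGF2, and 14.28 and 14.49 with BMP4. In PA6 cells they were 7.68, 9.27 and 9.01 without growth factors, 9.06, 9.11 and 9.23 with FGF2, and 8.69, 8.68 and 8.95 with BMP4. The raw intensity was thus 10356.5 to 23310.9 in co-cultures and 331.3 to 743.6 in PA6 cells, with no overlap. As a description, GJA1 was 47.0-fold higher in co-cultures than in PA6 cells without growth factors (log2 difference 5.56 ± 0.36 SE), 24.6-fold higher with FGF2 (4.62 ± 0.32) and 48.8-fold higher with BMP4 (5.61 ± 0.36). The lowest PA6 array was -GFs replicate 1, without which the first of these differences was 5.07.

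The order of the group means of GJA1 was co-culture with BMP4 (14.38 ± 0.15 SD, n = 2), without growth factors (14.21 ± 0.29, n = 2) and with FGF2 (13.75 ± 0.35, n = 3), then PA6 with FGF2 (9.13 ± 0.085, n = 3), with BMP4 (8.78 ± 0.15, n = 3) and without growth factors (8.65 ± 0.85, n = 3). Arrays overlapped between neighbours in this order except between the co-cultures with FGF2 and PA6 with FGF2, and between PA6 with FGF2 and PA6 with BMP4. FGF2 gave a log2 difference of -0.46 ± 0.25 SE in co-cultures, which did not pass the test (adjusted p = 0.337, limma). In PA6 cells the difference was 0.48 ± 0.35 with FGF2 (adjusted p = 0.653, limma) and 0.12 ± 0.35 with BMP4 (adjusted p = 0.940, limma). Both signs turned without -GFs replicate 1 of PA6 (-0.0066 and -0.37). BMP4 against FGF2 in PA6 cells gave -0.36 ± 0.35 (adjusted p = 0.814, limma). The FGF2 effect differed between both kinds of culture by -0.94 ± 0.48 (adjusted p = 0.280, limma), so that a difference was not shown. As a description, BMP4 in co-cultures stood 0.17 ± 0.28 above -GFs, and this sign turned without -GFs replicate 2 (-0.035).

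GJB2 was high with BMP4 in co-cultures and near or below the detection level elsewhere. On its brightest probe (ILMN_2999627) the raw intensity was 5501.4 and 6786.3 with BMP4, 323.8 and 381.7 without growth factors, and 260.8, 197.6 and 307.9 with FGF2. On the log2 scale these are 12.60 and 12.73 with BMP4, 7.18 and 7.82 without growth factors, and 6.36, 5.98 and 7.21 with FGF2. Both BMP4 arrays stood far above the other 5 co-culture arrays, and only replicate 3 of the FGF2 arrays was detected. As a description, GJB2 was 35.9-fold higher with BMP4 than without growth factors (log2 difference 5.16 ± 0.41 SE) and a fitted 70.9-fold higher than with FGF2 (6.15 ± 0.37). Of the 3 FGF2 arrays only 1 was above background, so the latter is no measured fold. None of the 9 PA6 arrays was detected on this probe, with a raw intensity of 114.4 to 218.5. In the order of group means, the co-cultures with BMP4 (12.67 ± 0.093 SD, n = 2) were followed by those without growth factors (7.50 ± 0.45, n = 2) and with FGF2 (6.52 ± 0.63, n = 3) and by the 3 PA6 groups at 5.68 to 6.02 (n = 3 each). Only the first of these groups did not overlap the next. On this probe and against the detection level of PA6 cells, GJB2 was at least 56.3-fold higher in co-cultures with BMP4. It was at least 1.75-fold higher in co-cultures without growth factors.

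**Figure D1:**
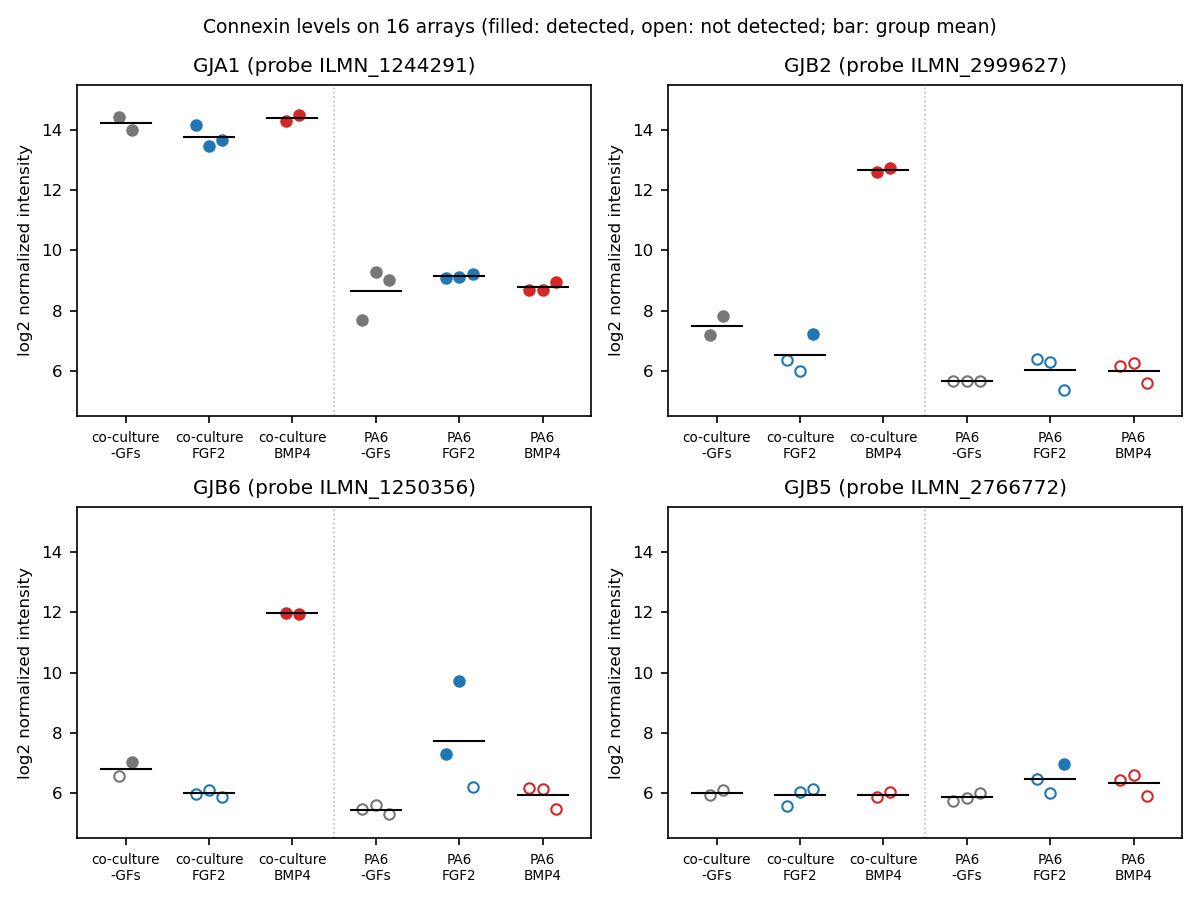
Each point is 1 array, with the log2 normalized intensity on the y axis and the 6 groups on the x axis, for the probe used for each member; filled points were detected, open points were not, and the bar is the group mean. GJB2 and GJB6 reach 12.60 to 12.73 and 11.95 to 11.97 with BMP4 in co-cultures, GJA1 separates co-cultures from PA6 cells, and GJB5 was detected on 1 array.

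GJB2 is read by 3 probes, and the other 2 were likewise highest with BMP4 in co-cultures, at lower brightness. They ordered the remaining groups otherwise, and on both the -GFs arrays of the co-cultures were undetected. Means without growth factors in co-cultures and PA6 cells were 6.09 and 5.60 on ILMN_1227148 and 5.82 and 5.52 on ILMN_2604713. ILMN_1227148 gave 10.58 and 11.12 on the log2 scale with BMP4 in co-cultures (raw 1515.3 and 2282.6). Outside that group it was detected on FGF2 replicate 3 of the co-cultures alone (raw 263.8). ILMN_2604713 gave 9.64 and 8.90 with BMP4 (raw 885.4 and 621.7) and was otherwise detected on FGF2 replicate 1 of PA6 alone (raw 284.1). The replicate with the higher value was thus not the same for the 3 probes. The log2 difference between BMP4 and -GFs was 3.45 on ILMN_2604713, where the -GFs arrays were not detected.

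**Figure D2:**
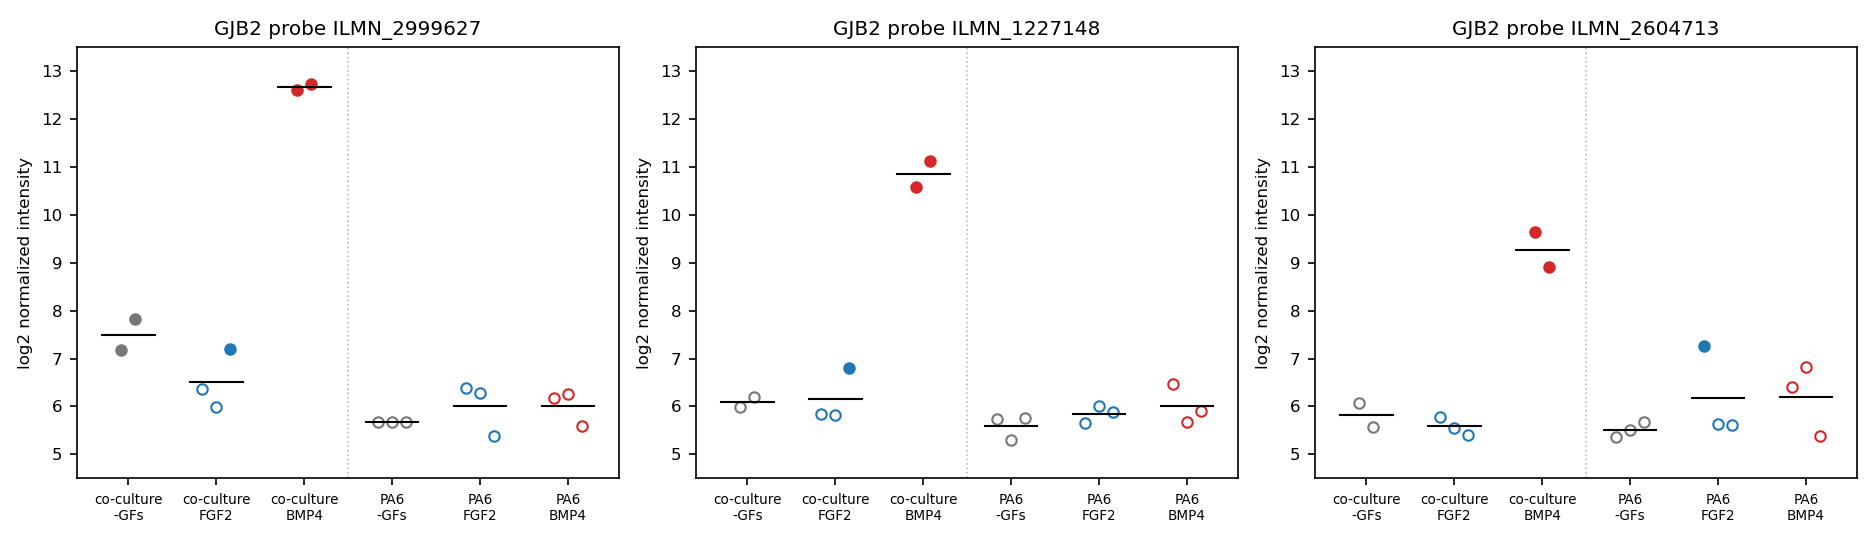
The 3 GJB2 probes are shown in separate panels, with 1 point per array, the log2 normalized intensity on the y axis and the 6 groups on the x axis; filled points were detected and the bar is the group mean. On each probe the 2 co-culture arrays with BMP4 stand above all other arrays.

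The FGF2 comparison in co-cultures was not used to choose GJB2. FGF2 gave a log2 difference of -0.98 ± 0.37 SE, which did not pass the test (adjusted p = 0.176, limma). The groups overlapped through FGF2 replicate 3, and without this array the difference was -1.33 and passed the threshold (adjusted p = 0.0613, limma). On ILMN_1227148 the difference was 0.060, with the -GFs arrays undetected. In PA6 cells the brightest GJB2 probe was undetected in every group, so no fold is given, and the adjusted p was 0.683 for FGF2, 0.739 for BMP4 and 0.998 for BMP4 against FGF2 (limma). The difference of the FGF2 effect between both kinds of culture was a fitted -1.32 ± 0.48, which did not pass the test (adjusted p = 0.126, limma). The PA6 groups of this probe were undetected, so this value rests in part on intensities not above background and is no measured fold. It passed without FGF2 replicate 3 of the co-cultures (-1.67, adjusted p = 0.0362, limma) and without FGF2 replicate 3 of PA6 (-1.64, adjusted p = 0.0591, limma). On ILMN_1227148 it was only -0.19, with the -GFs arrays of both cultures undetected.

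GJB6, the neighbour of GJB2 on chromosome 14, was likewise high with BMP4 in co-cultures. Its log2 values there were 11.97 and 11.95 (raw 3610.1 and 3952.4). They were 6.57 and 7.03 without growth factors, where 1 of 2 arrays was detected, and 5.97, 6.12 and 5.88 with FGF2, where none was. As a description, GJB6 was 35.8-fold higher with BMP4 than without growth factors (log2 difference 5.16 ± 0.22 SE) and at least 44.8-fold higher than with FGF2. Set against PA6 cells, it was at least 34.6-fold higher with BMP4 and at least 1.08-fold higher without growth factors, a bound that could not be given without -GFs replicate 2 of the co-cultures.

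With FGF2 the order of both kinds of culture was the opposite for GJB6. In PA6 cells with FGF2 its log2 values were 7.30, 9.73 and 6.20 (raw 287.9, 926.3 and 184.9), and the first 2 were detected. Without growth factors they were 5.48, 5.59 and 5.30, and with BMP4 6.16, 6.14 and 5.48, all undetected. Replicate 2 of FGF2 stood far above the other PA6 arrays, and replicate 3 was not above background. In the order of group means, co-cultures with BMP4 (11.96 ± 0.013 SD, n = 2) came first, then PA6 with FGF2 (7.74 ± 1.81, n = 3), co-cultures without growth factors (6.80 ± 0.32, n = 2) and with FGF2 (5.99 ± 0.12, n = 3), PA6 with BMP4 (5.92 ± 0.39, n = 3) and PA6 without growth factors (5.46 ± 0.14, n = 3). The first did not overlap the second, nor the third the fourth, and the other neighbours overlapped. As a description, GJB6 was at least 2.41-fold lower in co-cultures than in PA6 cells with FGF2 (at least 1.21-fold without FGF2 replicate 2 of PA6 and 4.12-fold without replicate 3). Also as a description, the FGF2 effect differed between the cultures by a fitted -3.10 ± 0.90 on the log2 scale. Co-cultures with FGF2 and PA6 cells without growth factors were undetected, so this is no measured fold. Without FGF2 replicate 2 of PA6 the fitted difference was -2.10.

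The FGF2 and BMP4 effects on GJB6 within PA6 cells were tested. FGF2 gave a log2 difference of 2.29 ± 0.73 SE, at least 2.08-fold against the detection level, which did not pass the test (adjusted p = 0.346, limma), and it was 1.29 without replicate 2, with a bound of 1.04-fold. Without replicate 3 the bound was 3.55-fold. BMP4 against FGF2 gave a fitted -1.82 ± 0.73 (adjusted p = 0.474, limma) and -0.82 without FGF2 replicate 2, no measured folds. Both the BMP4 and the -GFs arrays were undetected, and their comparison had an adjusted p of 0.877 (limma). In co-cultures FGF2 gave a fitted -0.81 ± 0.20, with no overlap between the groups. All 3 FGF2 arrays and -GFs replicate 1 were undetected there, so this is no measured fold. The adjusted p was 0.0588 (limma), but the size stayed under the log2 change of 1 that a call requires, and GJB6 was at least 1.25-fold lower with FGF2.

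GJB5 was close to the background. Its probe was detected on 1 of 16 arrays, FGF2 replicate 3 of PA6 (raw 230.3), and its raw intensity over all arrays was 156.3 to 242.5. Group means ran from 5.86 in PA6 cells without growth factors to 6.48 in PA6 cells with FGF2, each overlapping the next in order. GJB5 did not pass the detection filter, so only 3 of the 4 members were tested.

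A gene was called when its adjusted p was under 0.1 and its log2 change over 1 in size. For FGF2 in co-cultures 0 of the 3 tested members were called by limma (2 had an unadjusted p under 0.05, GJB2 and GJB6), next to 7.42% of all 14829 genes. In PA6 cells 0 of 3 were called with FGF2 (1 at an unadjusted p under 0.05, GJB6), 0 of 3 with BMP4 (0 unadjusted) and 0 of 3 for BMP4 against FGF2 (1 unadjusted, GJB6). The shares of all genes called were 0.027%, 0% and 0.31%. For the difference of the FGF2 effect between cultures 0 of the 2 members tested were called (1 unadjusted, GJB2), next to 7.9% of all genes.

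As a description, Pearson's r between GJB2 and GJB6 was 0.884 over 16 arrays and 0.988 over the 7 co-culture arrays. It was 0.632 and 0.622 between GJB2 and GJA1, and 0.421 and 0.612 between GJB6 and GJA1, in the same order. The 2 co-culture arrays with BMP4, whose values served to select the members, enter each r. On 2 arrays, those of the co-cultures with BMP4, both genes stood far above their other values. GJB6 was detected on 2 PA6 arrays with FGF2, at log2 values of 7.30 and 9.73, where the brightest GJB2 probe was undetected at 6.39 and 6.28. On the first of them ILMN_2604713 was detected.

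**Figure D3:**
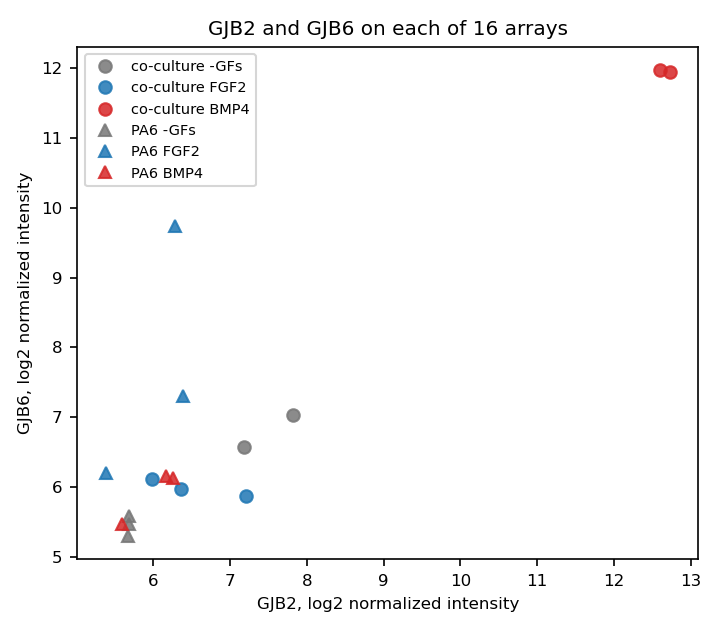
GJB2 (x axis) and GJB6 (y axis) are plotted against each other as log2 normalized intensity, 1 point per array, with circles for co-cultures, triangles for PA6 cells and colours for the factor. The 2 co-culture arrays with BMP4 lie alone at the upper right, and a PA6 array with FGF2 lies high in GJB6 (9.73) but not in GJB2.

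In the deposited table the columns stand in 3 runs, each with 1 array of every PA6 group and some co-culture arrays, and what a run stands for was not given in the sources used here. Within a run, GJB2 was 4.91 higher on the log2 scale with BMP4 than without growth factors in the only run that held both, and 6.62 and 5.52 higher with BMP4 than with FGF2 in both runs that held them. The same differences were 4.93, and 5.85 and 6.08, for GJB6. The 6.62 of GJB2 and both differences of GJB6 from FGF2 rest on undetected FGF2 arrays and are no measured folds.

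Genes whose patterns over the 16 arrays were among the most like each member are named by Pearson's r, as a description. For GJB2 they were 9530027K23RIK (0.949), 4631405K08RIK (0.948), the homeobox gene HOXC6 (0.948), the keratin KRT15 (0.947) and the apolipoprotein APOA1 (0.946). KRT15 had a mean log2 value of 12.78 and HOXC6 of 11.64 with BMP4 in co-cultures, next to 6.52 and 6.73 without growth factors. For GJB6 they were the homeobox gene ALX4 (0.910), the ligand WNT10A (0.899), GJB2 (0.884) and IRX6 (0.864). IRX6, another homeobox gene, reached 8.17 with BMP4 in co-cultures, next to 5.77 without growth factors. Each r over 16 arrays includes the 2 co-culture arrays with BMP4, which served for the selection. Over the 9 PA6 arrays, r with GJB2 was 0.40 (9530027K23RIK), -0.074 (4631405K08RIK), -0.034 (HOXC6), -0.58 (KRT15) and 0.44 (APOA1). With GJB6 it was 0.82 (ALX4), 0.55 (WNT10A), 0.62 (GJB2) and -0.0035 (IRX6). For GJA1 such genes were CKAP2L (0.994), a spindle protein, E2F2 (0.993), a transcription factor of the cell cycle, BRRN1 (0.993) and HRMT1L2 (0.993). For GJA1 the 16 arrays form 2 clusters, the kinds of culture, and r with these 4 genes was 0.563 to 0.755 over the 7 co-culture arrays and 0.700 to 0.824 over the 9 PA6 arrays.

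The summed level of markers of stratified epithelium, in which GJB2 and GJB6 are known, was likewise highest with BMP4 in co-cultures. Of 12 markers 7 passed the detection filter, and all 7 were detected on both co-culture arrays with BMP4. KRT5, KRT14, KRT15, SFN and DSP passed only through that group, so their detection there was fixed by the filter. The height of the sum with BMP4 follows in part from the same filter, and nothing is read from either. PERP, DSG3, LGALS7, KRT6A and IVL did not pass. The summed normalized intensity of the 7 was 13963 to 30606 with BMP4, 430 to 458 without growth factors and 680 to 917 with FGF2 in co-cultures, and 422 to 580 in PA6 cells. KRT14, a keratin of the basal layer, had a mean log2 value of 13.31 ± 1.19 SD with BMP4, and TRP63, the master regulator of that layer, of 10.88 ± 0.098 (n = 2 each). TRP63 was also detected on all 3 PA6 arrays without growth factors (7.54 ± 0.47) and with BMP4 (7.40 ± 0.32), and on 2 of 3 with FGF2 (6.86 ± 0.12). KRT5, the partner of KRT14, reached only 6.74 ± 0.54 with BMP4 and was undetected on all other arrays. KRT17, another keratin, did not follow GJB2 and GJB6, with 7.96 ± 0.20 with FGF2 (n = 3), 8.07 ± 0.33 with BMP4 and 6.09 ± 0.060 without growth factors in co-cultures (n = 2 each). Of the simple epithelial markers, 6 of 7 passed the filter, and their sum was 5937 to 8285 with BMP4, 2849 to 3798 without growth factors and 2662 to 3075 with FGF2. Neural and glial markers, of which 7 of 12 passed, had a sum of 11415 to 11931 with BMP4, 13662 to 15547 with FGF2 and 17634 to 22993 without growth factors. The same sum was 7918 to 17822 in PA6 cells, where SLC1A3, a glial glutamate transporter, was the only one of the 7 detected on every array of a group, at mean log2 values of 13.38 to 13.76, next to 12.14 to 12.57 in co-cultures. The part of these cell types in the values of GJB2 and GJB6 was not tested.

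Of 14 other connexin names examined, 11 were on the array and 5 passed the detection filter. GJA7 is an older name of Gjc1 (Cx45). GJA3, GJA10, GJB1 and GJD4 were undetected on all arrays, among them the chromosome 14 neighbour GJA3. GJA6 was detected on 7 arrays and GJE1 on 1, but on no whole group. FGF2 in co-cultures called 1 of the 5 tested (7.42% of all genes were called), GJA4, which passed the filter only through the FGF2 group itself, so that nothing is read from this count. The median log2 change of the 5 was -0.13, next to -0.057 over all genes.

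GJA4, a connexin of endothelium, was undetected in every other group and detected on all 3 co-culture arrays with FGF2 (log2 values 6.88 to 7.61). As a description, it was at least 1.66-fold higher than without growth factors. GJA4 was tested only because the FGF2 group detected it, so no test is given.

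Of 6 endothelial markers 2 passed the filter, PECAM1 and TEK, and CDH5, KDR, TIE1 and ICAM2 did not. The sum of PECAM1 and TEK was 1713 to 2976 with FGF2, 754 to 1268 with BMP4 and 206 to 286 without growth factors in co-cultures. For the 5 of 6 pluripotency markers that passed, the sum was 35313 to 44797, 14017 to 26390 and 7137 to 7452, in the same order. The part of these cell types in the level of GJA4 was not tested.

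**Figure D4:**
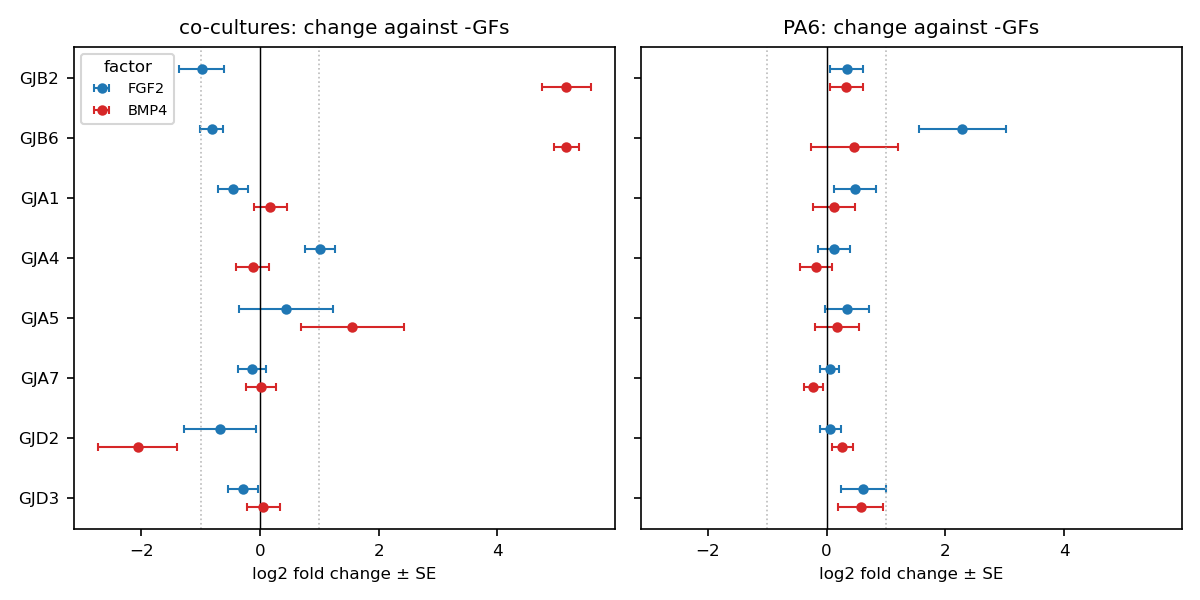
The fitted log2 fold change against -GFs (x axis, ± SE) is shown for 8 connexins that passed the detection filter (y axis), in co-cultures on the left and in PA6 cells on the right, with FGF2 in blue and BMP4 in red; dotted lines mark a log2 change of 1. GJB2 and GJB6 stand at 5.16 with BMP4 in co-cultures, and changes between undetected groups, such as GJB2 in PA6 cells, are no measured folds.

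Without growth factors, 1 of the 5 other connexins was higher in co-cultures than in PA6 cells and 0 were lower, next to 44.1% of all genes called. The median log2 difference of the 5 was 0.82, next to 0.032 over all genes. GJD2 (Cx36), the main connexin of neurons, was undetected in PA6 cells and was at least 2.28-fold higher in co-cultures (2.40 ± 0.46, adjusted p = 0.000486, limma), a call kept in all 24 alternatives. The probe used, 1 of 3, passed the filter only through the co-cultures without growth factors and with FGF2. Its size rests on few arrays, with a bound of 1.25-fold (log2 difference 1.54) without -GFs replicate 2 of the co-cultures and of 4.15-fold (3.27) without replicate 1. ILMN_2721734 had means of 6.77 in co-cultures, with 1 of 2 arrays detected, and 5.64 in PA6 cells. ILMN_2738638 was undetected on all arrays, at 5.78 and 6.18. GJA7 was detected on all 16 arrays, and its difference of 0.89 ± 0.21 had an adjusted p of 0.00183 (limma) but stayed under the size a call requires.

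GJD2 was undetected in the co-cultures in which GJB2 was high. Its raw intensity was 306.3 and 577.2 without growth factors and 310.3, 281.6 and 460.7 with FGF2, and both BMP4 arrays were undetected at 162.8 and 169.5. The BMP4 arrays lay below all others, at least 2.90-fold lower than without growth factors (1.59-fold without -GFs replicate 2 and 5.27-fold without replicate 1), but this did not pass the test (-2.05 ± 0.67, adjusted p = 0.202, limma). GJA5, a connexin of arteries and heart, had raw intensities of 568.7 and 244.2 with BMP4 and of 190.4 and 231.4 without growth factors (log2 difference 1.56 ± 0.86). GJD3 differed from -GFs by 0.059 ± 0.28 with BMP4 and by -0.28 ± 0.25 with FGF2 (adjusted p = 0.577, limma) in co-cultures. GJA5 and GJD3 passed the filter only through the co-cultures with BMP4, so their BMP4 values are a description with no test. GJA7 differed by 0.014 ± 0.25 with BMP4 and by -0.13 ± 0.23 with FGF2 (adjusted p = 0.991 and 0.784, limma). With BMP4 in co-cultures 0 of the 5 were called by limma (1 at an unadjusted p under 0.05, GJD2), next to 3.75% of all genes. GJA5 and GJD3 are among the 5, so that nothing is read from this count. In PA6 cells 0 of the 5 were called by limma with FGF2, with BMP4 or between both, and 0 had an unadjusted p under 0.05.

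Pannexins form channels of a similar fold without being related in sequence. Of 3 names only PANX1 passed the filter. It was higher in co-cultures than in PA6 cells by 3.26 ± 0.23 on the log2 scale without growth factors (9.56-fold, adjusted p = 4.64e-08, limma). FGF2 gave -0.88 ± 0.19 in co-cultures, with an adjusted p of 0.0422 (limma) but under the size a call requires. The FGF2 effect was lower in co-cultures than in PA6 cells by a fitted 1.10 ± 0.30 (adjusted p = 0.0494, limma), a call lost without -GFs replicate 2 of the co-cultures (-0.94) and without FGF2 replicate 3 of PA6 (-0.87), and also under median scaling (-1.17) and with no background correction (-0.95).

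Of 17 proteins that bind connexins, anchor their plaques or phosphorylate them, 14 were tested. FGF2 in co-cultures raised 1 of them and lowered 1, next to 7.42% of all genes called, and the median of the 14 was 0.25, next to -0.057 over all genes. CDH1 (E-cadherin), whose adhesion precedes gap junction assembly, was 5.17-fold higher with FGF2 (2.37 ± 0.37, adjusted p = 0.0169, limma), a call kept in all 17 alternatives. DBN1 (drebrin), an actin-binding partner of Cx43, fell by 1.16 ± 0.24 (adjusted p = 0.0368, limma), a call lost without -GFs replicate 2 (-0.89) and with no background correction (-0.95). BMP4 in co-cultures called 0 of the 14 by limma (4 at an unadjusted p under 0.05), next to 3.75% of all genes. In PA6 cells FGF2, BMP4 and the comparison of both called 0 by limma (0, 1 and 2 at an unadjusted p under 0.05), next to 0.027%, 0% and 0.31% of all genes.

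Without growth factors 2 of the 14 partners were higher in co-cultures than in PA6 cells and 4 were lower, with a median of -0.44. This share of 6 in 14 is close to the 44.1% of all genes called. CDH1 was higher by 2.28 ± 0.54 (adjusted p = 0.00235, limma) and the kinase CSNK1D by 1.89 ± 0.22 on its brightest probe (adjusted p = 5.07e-06, limma). The 5 CSNK1D probes did not all go the same way. Means in co-cultures and PA6 cells were 12.70 and 10.86 on ILMN_1231035 and 10.61 and 9.49 on ILMN_2746075. They were 10.88 and 10.75 on ILMN_3103652 and 9.66 and 9.97 on ILMN_3030340. Lower were the caveolins CAV1 (-3.04 ± 0.26, adjusted p = 3.04e-07, limma) and CAV2 (-2.84 ± 0.32, adjusted p = 4.27e-06, limma) and the kinases PRKCD (-1.65 ± 0.18, adjusted p = 2.54e-06, limma) and PRKCE (-1.14 ± 0.36, adjusted p = 0.0135, limma). The call of PRKCE was lost without -GFs replicate 2 of the co-cultures (-0.58), with no background correction (-0.64) and with an offset of 50 (-0.91). TJP1, the best known scaffold of Cx43, had mean log2 values of 8.55 ± 0.23 in co-cultures and 8.45 ± 0.21 in PA6 cells without growth factors.

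The FGF2 effect differed between both kinds of culture for 3 of the 14 partners, next to 7.9% of all genes called. It was higher in co-cultures for CDH1 (2.21 ± 0.73, adjusted p = 0.0922, limma) and CAV1 (1.17 ± 0.35, adjusted p = 0.0635, limma) and lower for DBN1 (-1.34 ± 0.31, adjusted p = 0.0216, limma). The calls were kept in 15 of 26, 17 of 27 and 25 of 27 alternatives. That of DBN1 was lost without -GFs replicate 2 of the co-cultures (-1.07) and under median scaling (-1.24). That of CDH1 was lost in turn without -GFs replicate 2 or FGF2 replicates 1 or 2 of the co-cultures and without -GFs replicates 1 or 2, FGF2 replicates 2 or 3 or BMP4 replicates 1 or 3 of PA6, with differences of 1.70 to 2.21. That of CAV1 was lost without -GFs replicates 1 or 2 or FGF2 replicates 1 or 2 of the co-cultures and without -GFs replicate 3 or FGF2 replicates 1 or 3 of PA6, with differences of 1.04 to 1.28. The calls of CDH1 and CAV1 were also lost with no detection filter and at an adjusted p under 0.05. Median scaling ended that of CAV1 as well (1.03).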

How the data were processed

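Average bead intensities of 16 MouseWG-6 v2.0 arrays were used as deposited, not normalized between arrays, together with the detection p-value that the deposited table gives for each probe and array. The authors read the scans with GenomeStudio 2011.01, and their own comparisons used cubic spline-normalized intensities that did not enter the values given. There were 45281 probes, with no genome build given. Columns were matched to samples by culture, factor and replicate number.

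The neqc function of limma 3.58.1 (R 4.3.3) subtracted the background by normexp, with its parameters from the detection p-values, added an offset of 16, quantile normalized the arrays and took log2. A probe was kept if all arrays of some group detected it at p-values under 0.05 (20880 probes), and each gene was represented by its brightest probe on average (14829 genes). limma was fitted to the 7 co-culture arrays, to the 9 PA6 arrays and, for comparisons between cultures, to all 16. Calls required a Benjamini-Hochberg adjusted p under 0.1 and a log2 change over 1, the thresholds of the study. Where a group was undetected, folds are bounds against the lowest signal detected on its arrays. The script was tested on simulated data with known changes. The fits were repeated with 13 other choices of scaling, background, filter, spread, block, probe, threshold and arrays.

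The members, gene lists and tests were chosen with earlier results of these data known. Named are the members, the connexins, pannexins and connexin partners that were called or detected on every array of a group, and, of the 5 genes most like each member, those reported here. Some genes are not reported here and were left out of the lists. Names were matched to RefSeq symbols or synonyms (GRCm38.p6): all 4 members, 17 of 17 partners and 14 of 14 other connexins matched, 2 of the latter as older names. Array number limits the precision of every value.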

Additional observations from a re-analysis of the deposited data

How the results depend on the processing

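Directions and calls of the members held under most alternatives. In co-cultures, the replicate block took the FGF2 value of GJB2 to -1.33 (adjusted p = 0.0930, limma) and the difference of its FGF2 effect between cultures to -1.67 (adjusted p = 0.0281, limma), both then called; it changed no other call of a member. The block also ended the FGF2 call of DBN1 in co-cultures (-1.21). Same-numbered co-culture arrays deviated from their group means with r from -0.199 to 0.283, and same-numbered PA6 arrays with r from 0.0697 to 0.199, so that the numbers were not taken as pairs. The FGF2 value of GJB2 was 0.060 on ILMN_1227148, and the difference of its FGF2 effect between cultures was -0.19 there. With no background correction, BMP4 in co-cultures gave 4.33 for GJB2 and 4.03 for GJB6, the FGF2 difference for GJB6 was -2.13, and co-culture against PA6 without factor was 5.08 for GJA1 and 1.11 for GJB2. With an offset of 50, GJB6 with BMP4 was 4.79 and GJB2 against PA6 was 1.34. On ILMN_2604713, GJB2 with BMP4 was 3.45 and against PA6 0.30, and on ILMN_1227148 the latter was 0.50. Among comparisons that passed no test, GJA1 with BMP4 in PA6 turned to -0.014 under median scaling, and GJB2 for BMP4 against FGF2 in PA6 turned to 0.0061 under median scaling, 0.059 with no background correction, 0.033 on ILMN_2604713 and 0.17 on ILMN_1227148. The cause was not tested.

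Leaving out 1 array at a time gave -1.33 to -0.67 for GJB2 with FGF2 in co-cultures, -1.67 to -1.004 for its FGF2 difference, -3.87 to -2.10 for that of GJB6, -0.035 to 0.38 for GJA1 and 4.93 to 5.39 for GJB6 with BMP4 in co-cultures, and 5.07 to 5.86 for GJA1 between cultures. In PA6 it gave -0.0066 to 0.79 for GJA1 with FGF2, -0.37 to 0.43 for GJA1 with BMP4 and -0.33 to 0.20 for GJB2 with BMP4 against FGF2. Of the 5 other connexins tested, FGF2 in co-cultures called 0 under median scaling, no background correction, an offset of 50, a detection p of 0.01, no filter, detection on all 16 arrays, the replicate block, runs of columns as a block or an adjusted p under 0.05 (0 to 1 leaving out an array). BMP4 called 2 under median scaling and 1 with all 16 arrays in 1 fit or with runs of columns as a block (0 leaving out an array). Co-culture against PA6 without factor called 0 with a detection p of 0.01 or detection on all arrays and 1 to 2 leaving out an array, with 2 on leaving out -GFs replicate 1 or 2 of the co-cultures or -GFs replicate 1 of PA6. GJB2 and GJB6 have no value under detection on all 16 arrays, since fewer genes are tested there. Median scaling moved the median of all genes from -0.057 to -0.21 for FGF2 and from -0.0015 to 0.093 for BMP4 in co-cultures, and from 0.039 to 0.29 for BMP4 against FGF2.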
